A study of Mus musculus with 7 samples.

Results

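Cell cycle exit in differentiating muscle was followed through 10 genes, chosen by symbol among the 26607 genes listed for each library. They were the CDK inhibitors Cdkn1a, Cdkn1b, Cdkn1c and Cdkn2c, the retinoblastoma ("pocket") proteins Rb1, Rbl1 and Rbl2, and the D cyclins Ccnd1, Ccnd2 and Ccnd3. All 10 were detected in every library, and all passed the only filter, a value above 0 in at least 1 library, which left 19144 genes for testing. The RNA came from C2C12 cells, an established mouse myoblast line, in 3 libraries of unstimulated myotubes (control replicates 1, 3 and 4) and 4 libraries of myotubes given electric pulse stimulation, EPS (replicates 1 to 4). EPS began after 3 days of differentiation, ran for 24 h and was followed by 1 h without pulses. The time at which control RNA was taken is not stated in the sources used here. The labels do not say whether the libraries of a group came from separate cultures, so every p-value measures the spread between these libraries, which may be technical.

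Myoblasts must leave the cell cycle before they can fuse. D cyclins activate the kinases CDK4 and CDK6, which phosphorylate the pocket proteins and so release E2F transcription factors to start DNA replication. CDK inhibitors block these kinases and CDK2, and differentiating muscle is known for high levels of Cdkn1a, of the hypophosphorylated Rb1 protein and of Ccnd3, the D cyclin that myotubes keep. RNA levels, as measured here, do not show phosphorylation or protein stability, through which much of this control works.

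Values are CPM, the reads of a gene scaled to a common total over all listed genes. Recovered whole reads totalled 16616917 to 22120641 per library, and the 10 genes had from 53 to 58450 reads in a library, all well above the floor of 3 reads (0.136 to 0.181 CPM). Control replicate 4 stood apart, with only 359 genes at 1 to 5 reads where the others had 2670 to 3181, so the fold change of each of the 10 genes is also given without it. All 12 myotube markers were detected, and their summed level was 15242 to 19696 CPM in control and 12693 to 16001 CPM in EPS, with a median log2 fold change of -0.45 and 10 of 12 below 0. Of 8 markers of undifferentiated myoblasts or reserve cells, 7 were above 0, with sums of 132 to 208 CPM in control and 82.8 to 146 CPM in EPS (median log2 fold change -0.67, 6 below 0), and Pax3 was at 0. The 8 osteoblast, chondrocyte and adipocyte markers summed to 55.5 to 83.0 CPM in control and 63.1 to 84.3 CPM in EPS, with Ibsp and Plin1 at 0 in all 7 libraries. Nearly all of these sums came from Sox9 (36.5 to 67.3 CPM) and Cebpa (12.9 to 42.2 CPM). Bglap, Acan, Adipoq and Sp7 did not exceed 0.341 CPM in any library. In bulk RNA of this kind, fewer cells of a type and less RNA per cell cannot be told apart.

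Upstream sequences are shown for the members on which the results below turn: Cdkn1a, by far the most abundant of the 10, Ccnd3 and Rbl2, the genes whose groups did not overlap, and Rbl1, which carried the only E2F motif found. They are RefSeq sequences of GRCm38.p6, read 5′ to 3′ on the strand of the gene and ending at the last base before the annotated start, and capitals mark a motif match. Of the 10 genes, 6 had an entry in the RefSeq promoter table, with 9 entries in all, and Cdkn1c, Rb1, Ccnd1 and Ccnd2 had none. The Cdkn1a sequence lies at chr17:29093619-29093768 on the plus strand, the Ccnd3 sequence at chr17:47593317-47593466 on the plus strand, the Rbl1 sequence at chr2:157204535-157204684 on the minus strand and the Rbl2 sequence at chr8:91069807-91070056 on the plus strand. The Rbl1 and Rbl2 sequences end just before the genes, and the other sequences lie inside the span of the annotated gene, before an internal start.
Cdkn1a: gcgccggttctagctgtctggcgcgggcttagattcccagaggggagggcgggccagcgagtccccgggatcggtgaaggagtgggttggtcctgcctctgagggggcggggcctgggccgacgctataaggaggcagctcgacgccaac
Ccnd3: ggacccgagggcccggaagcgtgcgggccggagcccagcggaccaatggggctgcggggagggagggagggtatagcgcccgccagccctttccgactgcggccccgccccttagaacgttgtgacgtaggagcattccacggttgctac
Rbl1: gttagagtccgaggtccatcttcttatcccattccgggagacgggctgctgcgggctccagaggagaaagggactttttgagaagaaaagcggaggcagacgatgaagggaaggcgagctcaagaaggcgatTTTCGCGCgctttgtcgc
Rbl2: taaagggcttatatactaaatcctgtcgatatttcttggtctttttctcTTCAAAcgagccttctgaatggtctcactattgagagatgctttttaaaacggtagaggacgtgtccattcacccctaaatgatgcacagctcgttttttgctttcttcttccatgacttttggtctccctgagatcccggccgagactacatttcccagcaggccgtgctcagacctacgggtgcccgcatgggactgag

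For these genes, 3 kinds of motif were searched on both strands of the 250 bases before each start. The E2F motif (TTTCGCGC, TTTGGCGC, TTTCCCGC or TTTGCCGC) was present in 611 of 32851 RefSeq promoters, or 1.86%, and among the 9 entries it was found in Rbl1 alone, beginning 18 bases before the start. The CHR motif (TTTGAA), an element of genes repressed by pocket protein complexes in resting cells, was present in 16% of promoters. It was found in Rbl2 alone, beginning at position -201 and reading TTCAAA on the strand shown. The myogenic E-box (CAGCTG), bound by MyoD and myogenin, was present in 13% of promoters and was found in Rbl1 alone, at position -183, upstream of the stretch shown. A match describes the letters only and is not evidence of binding, and the entries without a match lack only these letters in this window.

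In GENCODE M21 on GRCm38 the inhibitors lie at chr17:29090976-29100727 (Cdkn1a, plus strand), chr6:134920401-134925513 (Cdkn1b, plus), chr7:143458339-143461050 (Cdkn1c, minus) and chr4:109660876-109667189 (Cdkn2c, minus). The pocket proteins lie at chr14:73183673-73325822 (Rb1, minus), chr2:157145893-157204534 (Rbl1, minus) and chr8:91070057-91123844 (Rbl2, plus). The D cyclins lie at chr7:144929931-144939925 (Ccnd1, minus), chr6:127125162-127152193 (Ccnd2, minus) and chr17:47505051-47599691 (Ccnd3, plus).

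Before any comparison between groups, the level of each gene was set against the others per kilobase of merged exon. In control myotubes Cdkn1a was the most abundant, at 521 ± 195 CPM per kb (SD, n = 3), followed by Ccnd3 at 51.4 ± 11.04. Cdkn1a ranked between 25 and 86 by CPM among the 19144 genes, and Ccnd3 between 203 and 754. Rb1 (23.5 ± 6.09), Cdkn1c (23.4 ± 12.4), Cdkn1b (12.0 ± 4.01), Rbl2 (11.6 ± 2.79), Ccnd1 (9.49 ± 1.80) and Cdkn2c (6.31 ± 1.79) formed a middle group in which no neighbour in the order was separated from the next. Rbl1 (3.02 ± 1.499) and Ccnd2 (0.990 ± 0.572) were lowest and overlapped each other.

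In EPS myotubes the order began the same way, with Cdkn1a at 336 ± 44.7 CPM per kb (SD, n = 4), Ccnd3 at 31.5 ± 5.58 and Rb1 at 21.7 ± 5.33, and Ccnd3 and Rb1 now overlapped. Rbl2 came next at 15.4 ± 2.05, ahead of Cdkn1c at 10.9 ± 4.13 and Cdkn1b at 10.6 ± 4.64. The only neighbours that did not overlap were Cdkn1a and Ccnd3 at the top, and Rbl1 (4.69 ± 1.83) and Ccnd2 (0.823 ± 0.427) at the bottom.

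**Figure D1:**
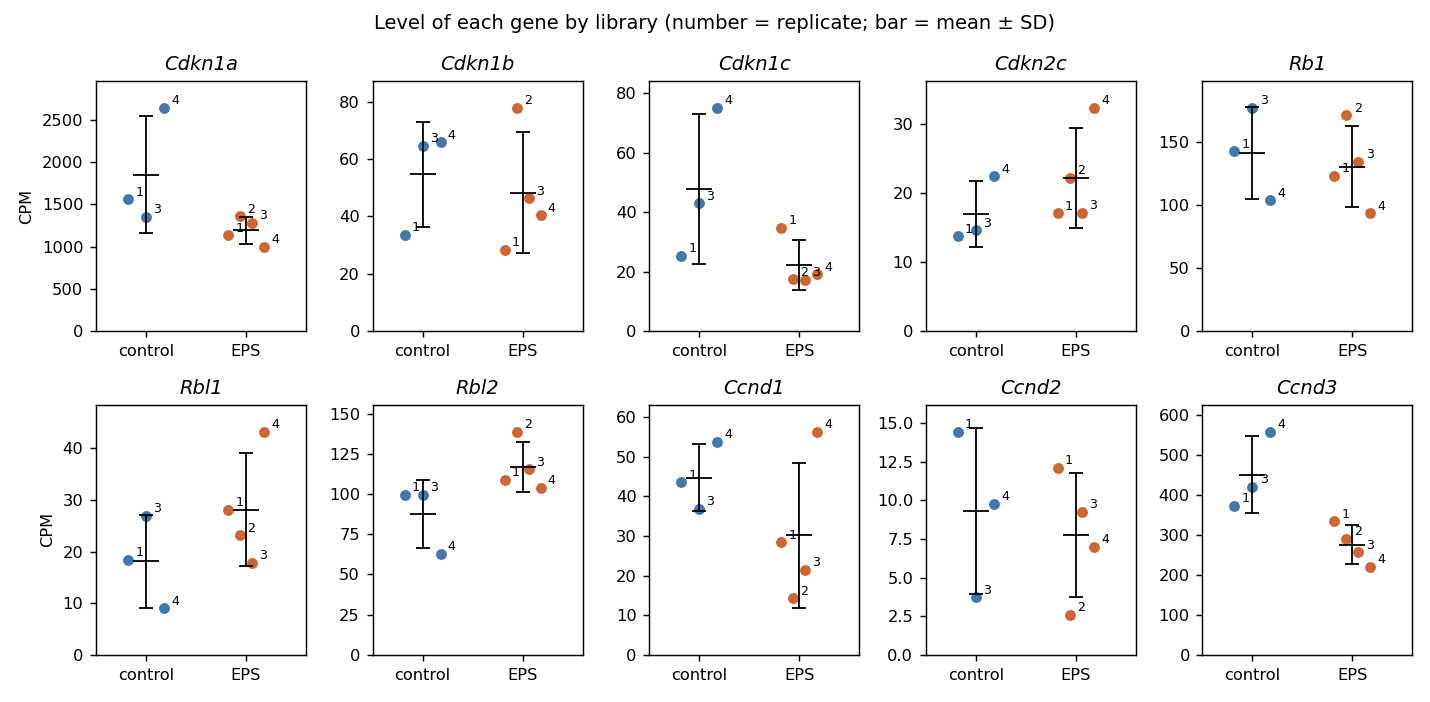
Level in CPM (vertical axes, from 0, different for each gene) of the 10 genes in the 3 control and 4 EPS libraries, with the replicate number beside each point and black bars for the mean ± SD. All 4 EPS points lie below all control points for Ccnd3 and above them for Rbl2, and in the other 8 genes the groups overlap.

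EPS was compared with control for each of these genes. Of the 10 genes, 0 passed an unadjusted P under 0.01 together with a change of more than 2-fold in limma on log2(CPM + 1), against 269 of all 19144 genes, or 1.41%. At an unadjusted P under 0.01 and any fold there was 1 (Ccnd3), against 4.17% of all genes, and at a P under 0.05 there were 2 (Cdkn1c and Ccnd3), against 11.6%. On recovered reads Cdkn1a was also at a P under 0.05, which made 3 in edgeR (11.6% of all genes) and 3 in DESeq2 (10.6%). At a Benjamini-Hochberg adjusted p under 0.05 over all genes there were 0 in limma (0.141% of all genes), 0 in edgeR on recovered reads (1.51%) and 2, again Cdkn1c and Ccnd3, in DESeq2 on the same reads (3.39% of the 14676 genes that it gave an adjusted p). The groups did not overlap for 2 members, against 10.6% of all genes. The log2 fold change was below 0 for 7 members and above 0 for 3 (Cdkn2c, Rbl1 and Rbl2), with a median of -0.22. Among genes with a mean of at least 1 CPM the median was 0.10, and relative to it 3 of the 10 members were still above 0.

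Ccnd3, the D cyclin of differentiated muscle, gave the clearest difference. Its level was 373, 421 and 559.7 CPM in control (replicates 1, 3 and 4, the order used below) and 335, 291, 257 and 220.4 CPM in EPS (replicates 1 to 4). The EPS values were all lower than the lowest control value, as in 2.85% of all genes, and this held under both other scalings. Leaving out a library cannot make separate groups overlap, so the omissions do not test it. The log2 fold change was -0.70 (SE 0.21, 95% interval -1.19 to -0.22), which is 1.63-fold lower with an interval of 1.16- to 2.28-fold. The limma P was 0.00964 and the Benjamini-Hochberg adjusted p 0.236, and the exact two-sided permutation test gave p = 0.0286, the smallest that 35 splits allow. Without control replicate 4 the log2 fold change was -0.54, and the limma P was above 0.01 without this library, control replicate 3 or EPS replicates 2, 3 or 4 (0.0155 to 0.0312). Of the Ccnd3 exon bases, 4.11% are shared with Bysl on the opposite strand, which ran from 47.7 to 56.8 CPM over the 7 libraries.

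Ccnd1, the D cyclin of growing myoblasts that responds to mitogens, was measured at 43.5, 36.9 and 53.7 CPM in control and 28.4, 14.3, 21.4 and 56.3 CPM in EPS. EPS replicates 1 to 3 were below all control libraries, whereas EPS replicate 4 was the highest of the 7. The log2 fold change of -0.71 (SE 0.39) had a 95% interval of -1.61 to 0.18 (limma P 0.105, adjusted p 0.531; exact permutation p = 0.257). Without EPS replicate 4 it was -1.06 with a limma P of 0.00517 and an adjusted p of 0.258, so this library decided whether Ccnd1 passed both thresholds, as 1.11% of all genes did without it, and without control replicate 4 it was -0.57. On the opposite strand LTO1, listed under its older symbol Oraov1 at 12.7 to 28.8 CPM, covers 23.4% of the Ccnd1 exon bases.

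Ccnd2, the least abundant of the family, had 14.5, 3.73 and 9.76 CPM in control and 12.1, 2.58, 9.27 and 7.01 CPM in EPS. The spread within each group was far wider than the difference between them, and the lowest library of each group was control replicate 3 and EPS replicate 2. EPS minus control was -0.23 on the log2 scale (SE 0.53, 95% interval -1.42 to 0.97; limma adjusted p 0.873), and its direction turned when control replicate 1 or EPS replicate 2 was left out. Without control replicate 4 it was -0.12.

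Per kilobase, Ccnd3 made up 79.8%, 85.4% and 83.7% of the D cyclin RNA in control and 83.9%, 90.9%, 84.1% and 66.4% in EPS. The EPS libraries lay on both sides of the control libraries, and the lowest share was that of EPS replicate 4. There Ccnd1 supplied 31.6%, against 8.33% to 17.3% in the other 6.

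**Figure D2:**
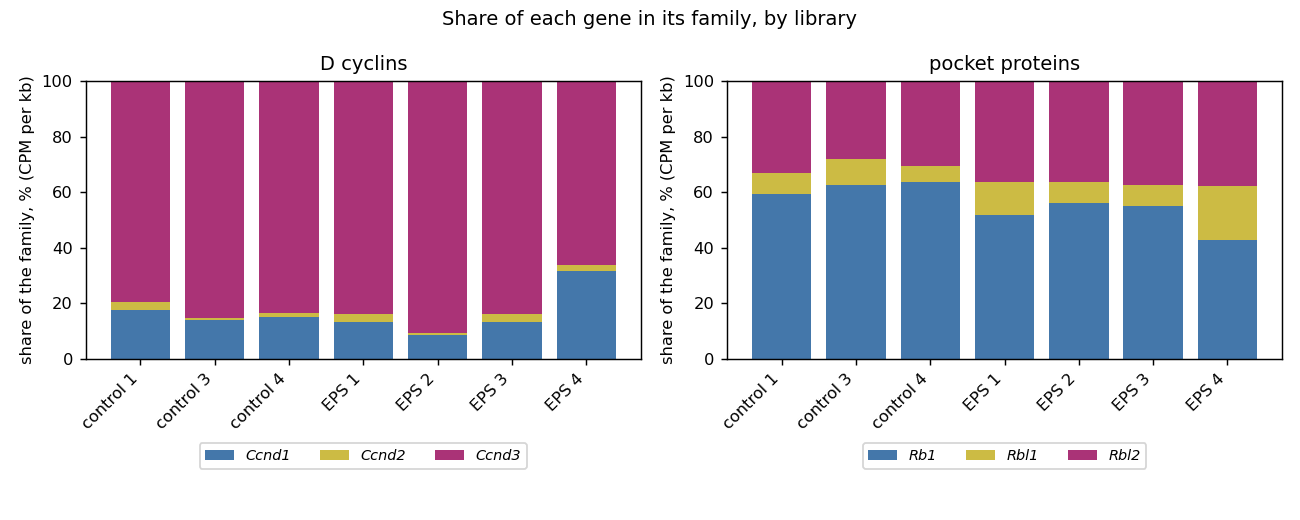
Share in percent of each D cyclin (left) and each pocket protein (right) in the CPM per kb of its family, 1 stacked bar for each control and EPS library. Ccnd3 is the largest D cyclin share in all 7 bars with a dip to 66.4% in EPS replicate 4, and the Rb1 share is 59.3% to 63.7% in control and 42.6% to 56.1% in EPS.

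Cdkn1a, the p53- and MyoD-induced inhibitor of CDK2 and other kinases, was at 1560.1, 1352 and 2642 CPM in control and 1135, 1358, 1284 and 1001 CPM in EPS. The highest library was control replicate 4, and the groups overlapped only in that EPS replicate 2, at 1358.1 CPM, exceeded control replicate 3, at 1352.0. The log2 fold change was -0.58 (SE 0.33, 95% interval -1.34 to 0.18; limma P 0.118, adjusted p 0.557; exact permutation p = 0.0571). On recovered reads it was -0.74 in edgeR (P 0.0145, adjusted p 0.250) and -0.75 in DESeq2 (P 0.00487, adjusted p 0.0999), short of 2-fold. In limma it moved to -0.29 without control replicate 4. After scaling by the median of ratios or quantile normalization the groups no longer overlapped, with EPS lower. The share of all genes without overlap under these scalings is not given here, so this is a description only.

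Cdkn1c, an imprinted inhibitor of the same family that is known from muscle differentiation, was at 25.4, 42.9 and 75.0 CPM in control and 34.7, 17.5, 17.4 and 19.1 CPM in EPS. EPS replicates 2 to 4 were below all control libraries, and EPS replicate 1 lay between control replicates 1 and 3. The log2 fold change of -1.002 (SE 0.37, 95% interval -1.85 to -0.16) was the largest of the 10 in size, with a limma P of 0.0254, an adjusted p of 0.338 and an exact permutation p = 0.0857. On recovered reads Cdkn1c passed both thresholds, with -1.21 in edgeR (P 0.000857, adjusted p 0.0548) and -1.22 in DESeq2 (P 0.00102, adjusted p 0.0346), as did 3.29% and 3.06% of all genes in these tests. Leaving out EPS replicate 1 (-1.23, limma P 0.00905) or control replicate 1 (-1.38, limma P 0.00348) also took it past both, as 1.47% and 1.31% of all genes in those fits, whereas without control replicate 4 it was -0.62. An antisense transcript on the opposite strand, Gm44732, covers 30.7% of the exon bases of Cdkn1c and was not found among the listed symbols. The kit was directional, so the reads carry strand, but whether the counting used it is not given in the sources used here, and the values of genes that overlap in this way are uncertain to that extent.

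Cdkn1b, which holds CDK2 inactive in resting cells and is controlled mainly through protein degradation, was at 33.6, 64.6 and 65.8 CPM in control and 28.4, 77.8, 46.3 and 40.4 CPM in EPS. The EPS libraries spanned the control libraries on both sides. Their difference was -0.21 on the log2 scale (SE 0.35, 95% interval -1.01 to 0.59; limma adjusted p 0.863). It was -0.047 without control replicate 4 and turned direction, to 0.0074, without EPS replicate 1.

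Cdkn2c, an INK4 inhibitor that binds CDK4 and CDK6 and keeps D cyclins from them, was at 13.8, 14.6 and 22.5 CPM in control and 17.1, 22.3, 17.2 and 32.4 CPM in EPS. All EPS libraries exceeded control replicates 1 and 3, and only EPS replicate 4 exceeded control replicate 4. On the log2 scale EPS was 0.36 higher (SE 0.28, 95% interval -0.27 to 0.99; limma adjusted p 0.671), but it ranged from 0.17 without EPS replicate 4 to 0.57 without control replicate 4, where the groups did not overlap, as in 19.7% of all genes without that library. Among the 4 inhibitors per kilobase, Cdkn2c took 1.04% to 1.29% in control and 1.66% to 3.87% in EPS, while Cdkn1a took 90.3% to 94.6% over all 7 libraries. With Cdkn1a so large a part of the total, the Cdkn2c share mainly restates the ratio of Cdkn2c to Cdkn1a. No such share over all genes is given here, so this is a description only.

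Rb1, the pocket protein that silences E2F target genes permanently in myotubes, was at 143, 177 and 104 CPM in control and 123, 171, 134 and 93.4 CPM in EPS. The groups lay almost entirely over each other, with the lowest value in EPS replicate 4. With a log2 fold change of -0.11 (SE 0.24, 95% interval -0.66 to 0.44; limma adjusted p 0.869), Rb1 did not pass any threshold, and the sign turned without EPS replicate 4 or control replicate 3. Without control replicate 4 the value was -0.32. Rcbtb2 and Lpar6, on the opposite strand, share 8.11% and 6.78% of its exon bases.

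Rbl1 (p107), which is itself an E2F target and is most abundant in cycling cells, was at 18.4, 27.0 and 8.996 CPM in control and 28.1, 23.2, 17.9 and 43.3 CPM in EPS. EPS replicate 4 was the highest and control replicate 4 the lowest, 2.15 apart on the log2 scale, the widest range of the 10 genes. This gave a log2 fold change of 0.66 (SE 0.39, 95% interval -0.23 to 1.54; limma P 0.127, adjusted p 0.573; exact permutation p = 0.314). Without control replicate 4 it was 0.25. It was 0.43 without EPS replicate 4 and 0.99 without control replicate 3, where the limma P was 0.0334 and the adjusted p 0.311.

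Rbl2 (p130), the pocket protein of resting cells and a subunit of the DREAM repressor complex, was at 99.7, 99.4 and 63.0 CPM in control and 109, 139, 115 and 104 CPM in EPS. Every EPS library exceeded every control library, as in 7.76% of all genes, and control replicate 4 was by far the lowest. Rbl2 had a log2 fold change of 0.44 (SE 0.20, 95% interval -0.013 to 0.89; limma P 0.0557, adjusted p 0.444). The exact permutation test gave p = 0.0571 on CPM and 0.0286 on log2(CPM + 1). The log2 fold change was 0.22 without control replicate 4, and after scaling by the median of ratios (0.32) the groups overlapped. On the opposite strand, Aktip shares 9.17% of the Rbl2 exon bases and Gm45464, not found among the listed symbols, 11.8%.

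**Figure D3:**
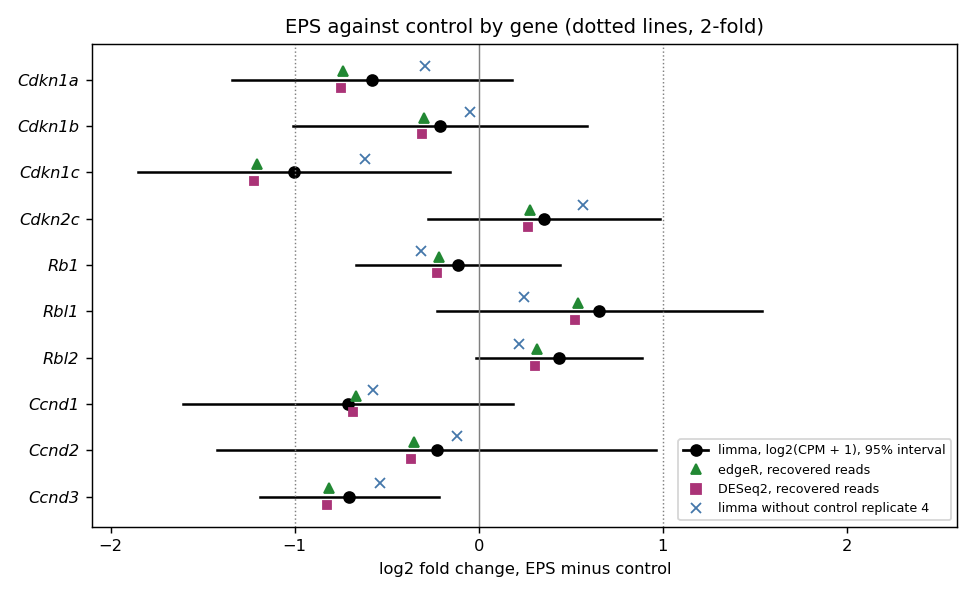
Log2 fold change of EPS against control (horizontal axis) for the 10 genes, with black points and lines for the limma estimate and its 95% interval, triangles for edgeR, squares for DESeq2 and crosses for limma without control replicate 4. The intervals of Cdkn1c and Ccnd3 exclude 0, and the crosses lie nearer to 0 than the black points for 8 genes, the exceptions being Cdkn2c and Rb1.

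Because a ratio of genes within a library does not depend on how the library was scaled, the members were also compared pair by pair, as a description with no test. The log2 ratio of Rb1 to Rbl2 was 0.52, 0.83 and 0.72 in control and 0.18, 0.30, 0.22 and -0.15 in EPS. All EPS values lay below all control values, and the Rb1 share of pocket protein RNA per kilobase ran from 59.3% to 63.7% in control and from 42.6% to 56.1% in EPS. The log2 ratio of Rbl2 to Ccnd3 was -1.90, -2.08 and -3.15 in control and -1.62, -1.07, -1.16 and -1.09 in EPS, again without overlap. That of Cdkn1a to Cdkn2c was 6.53 to 6.88 in control and 4.95 to 6.22 in EPS. In all, 9 of the 45 pairs had groups that did not overlap, against 13.4% of all pairs of genes with a mean of at least 1 CPM that were above 0 in every library. The pairs share genes and are not independent, and Cdkn2c, Rbl1, Rbl2 and Ccnd3 each stand in 3 of the 9. Without control replicate 4 there were 11 such pairs. Leaving out a library can only add to the 9, and the share over all pairs without it is not given here. The ratio of Cdkn1a to Ccnd3 varied little, with log2 values of 1.68 to 2.24 in control and 1.76 to 2.32 in EPS.

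The centred profiles over the 7 libraries showed the same likeness. Cdkn1a and Ccnd3 differed by a mean of 0.20 on the log2 scale, the smallest distance of the 45 pairs, followed by Rb1 and Rbl2 at 0.27. For the 3 members with the widest range, the nearest of 12255 other genes were also found. Around Rbl1 they were Lrr1 (mean difference 0.097), Suv39h2 (0.106) and Mcm2 (0.109), against a median of 0.509 over all genes, and Mcm2 is a subunit of the replicative helicase. Lrr1 was low, at 0 in control replicate 4 and 0.685 to 3.19 CPM in the other libraries, and all 3 genes, like Rbl1, were lowest in that library. None of these 3 promoters held the E2F motif that is printed above for Rbl1. Around Ccnd2 the nearest were Plec (0.142), Mfhas1 (0.202) and Vars (0.209), and around Cdkn1c they were Nt5dc2 (0.157), Smoc2 (0.213) and Dhrs7c (0.217). These profiles rest on 7 libraries, and likeness over so few points is a description only.

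**Figure D4:**
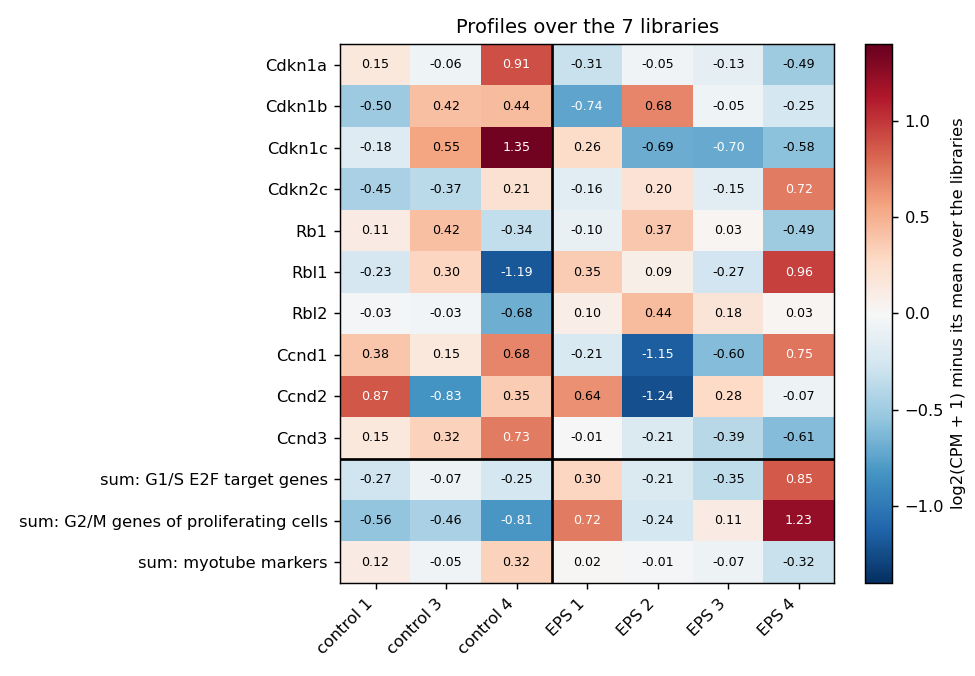
Heat map of log2(CPM + 1) minus its mean over the 7 libraries (colour scale and printed values) for the 10 genes and, under the line, for the summed CPM of 3 gene lists, with control libraries left of the vertical line and EPS libraries right of it. Rbl1 and the summed G2/M genes are both highest in EPS replicate 4 (0.96 and 1.23) and lowest in control replicate 4 (-1.19 and -0.81). The summed G1/S genes are also highest in EPS replicate 4 (0.85) but lowest in EPS replicate 3 (-0.35), with control replicate 4 at -0.25.

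The rest of the pathway was described by lists of genes, with the count past both thresholds set against 0.966% of all genes for higher and 0.439% for lower calls, and the median against 0.041 over all genes tested. Among other INK4 and CDK-inhibiting genes, Cdkn2a and Cdkn2b were listed at 0 in all 7 libraries and 0 of the 4 genes tested passed (median log2 fold change 0.34). The widest difference there was that of Cdkn3, a phosphatase that acts on CDK2, at 1.08 (limma P 0.0128, adjusted p 0.263), and it passed in edgeR and in DESeq2. Of 10 genes of the G1 kinases, their activating kinase, phosphatase and chaperone, and the E cyclins, 0 passed (median 0.17), and the widest difference was that of Cdk2, a target of Cdkn1a and Cdkn1b, at -0.48.

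Of 10 E2F and DP factors, through which the pocket proteins act, 0 passed (median -0.010). E2f2, an activator of replication genes, had 143, 102 and 117 CPM in control and 77.8, 59.4, 79.3 and 73.3 CPM in EPS. All EPS libraries were lower, with a log2 fold change of -0.73 (limma P 0.00208, adjusted p 0.139), short of 2-fold. Of 7 DREAM and MuvB genes, which include Mybl2, the factor that replaces Rbl1 and Rbl2 on MuvB, and the kinase Dyrk1a, 0 passed (median 0.22, widest Lin52 at 0.79, and 0.079 without control replicate 4), and the same was true of 13 genes of ubiquitin ligases that degrade CDK inhibitors and D cyclins, counting Pcna, the sliding clamp on which such a ligase acts (median 0.025, widest Rbx1 at 0.51). Of 18 genes of the p53 pathway, Trp53 itself and targets other than Cdkn1a, 0 passed (median 0.13), 8 were below 0, and the widest difference was that of Bbc3, an inducer of apoptosis, at -0.84, and -0.44 without control replicate 4.

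Downstream of the pocket proteins lie genes of DNA replication and of mitosis. Of 23 G1/S genes that E2F activates 0 passed (median 0.17), with Cdc45, a part of the replicative helicase, widest at 0.82, and 0.39 without control replicate 4. Pcna, Ccne1 and Ccne2 are counted here and also in a list above. Of 20 G2/M genes of proliferating cells 6 rose past both thresholds and 0 fell, although 0 had an adjusted p under 0.05, and all 20 were above 0 (median 1.01). They were Kif11 (1.30), Cenpf (1.22) and Birc5 (1.19), which act in the spindle, the kinetochore and cytokinesis, and Ccnb2, Nusap1 and Kif20a. The count was 1 after scaling by the median of ratios, 0 after quantile normalization, 12 in edgeR and 10 in DESeq2. It was 0 without EPS replicate 1, EPS replicate 4 or control replicate 4, 1 without control replicate 1 and 10 without EPS replicate 2. These lists were chosen with results of the same libraries known, and the G2/M count is therefore no independent evidence.

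**Figure D5:**
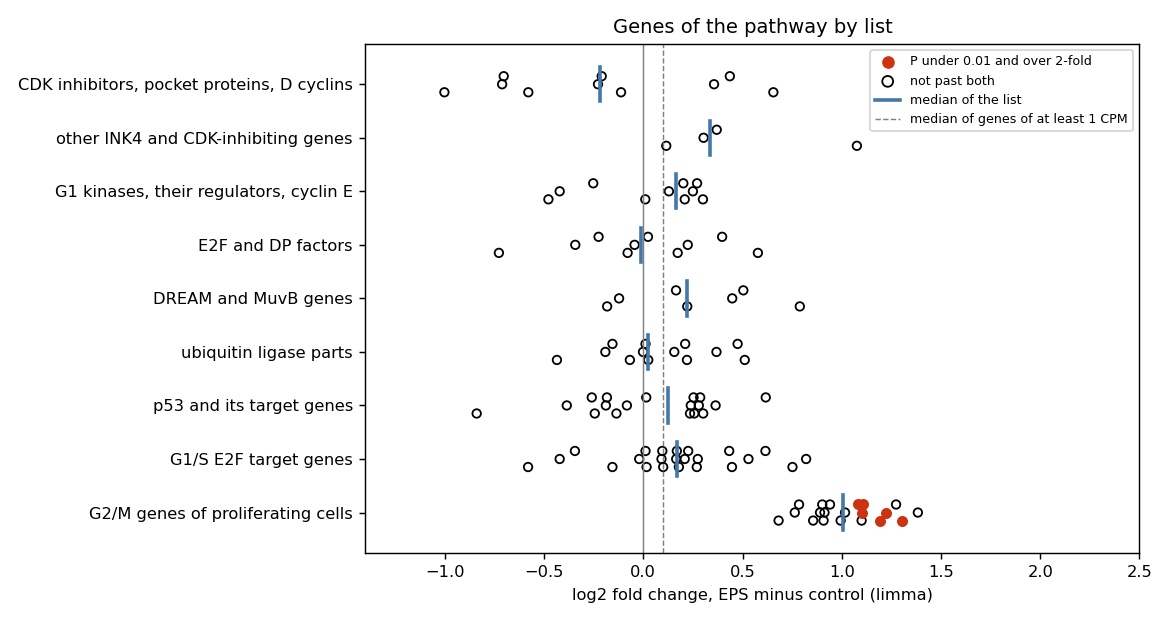
Log2 fold change of EPS against control (horizontal axis, limma) for each gene of the pathway by list, with filled red points for genes past P under 0.01 and 2-fold, open points for the others, a blue bar for the median of the list and a dashed line at 0.10 for the median of genes of at least 1 CPM. The G2/M list, with a median of 1.01, holds the only 6 red points, and the 10 genes in the top row lie on both sides of 0.

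The summed level of the 20 G2/M genes was 686, 736 and 575 CPM in control and 1668, 852, 1091 and 2376 CPM in EPS replicates 1 to 4. EPS replicate 4 was thus the library with the most G2/M RNA, and it was also the highest of the 7 in Rbl1, Cdkn2c and Ccnd1 and the lowest in Ccnd3, Cdkn1a, Rb1 and the myotube marker sum. Among the EPS libraries, EPS replicate 1 came next to it in G2/M RNA, in high Rbl1 and Ccnd1 and in low Cdkn1a and Rb1. In that group, however, EPS replicate 1 was the highest in Ccnd3 and in the myotube marker sum and the lowest in Cdkn2c. EPS replicate 2 had the least G2/M RNA of the EPS libraries and, of all 7, the lowest Ccnd1 and Ccnd2. The part of the G2/M level and of the myotube marker level in the differences of the 10 genes was not tested.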

How the data were processed

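The authors mapped paired-end reads of poly(A) RNA to GRCm38 with STAR 2.5.4b and deposited CPM for 26607 genes by symbol; the counter, its annotation and its strand setting are not given in the sources used here. In each library 100% of values were whole multiples of 1 read (tolerance 0.01), so whole reads were recovered. The values were taken as log2(CPM + 1), a scale that understates the change of low genes, and limma 3.58.1 was run on 19144 genes, those not at 0 throughout (R 4.3.3, mean-variance trend, no covariate), with Benjamini-Hochberg adjustment over all of them. A call required both a P below 0.01, unadjusted, and a change over 2-fold. Single genes were also compared by an exact two-sided permutation test over 35 splits. On recovered reads edgeR 4.0.16 called 629 genes and DESeq2 1.42.0 called 585. Scripts were tested on simulated data. Positions and merged exon lengths came from GENCODE M21 and promoters from RefSeq (GRCm38.p6).

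The 10 members are named throughout. Of each pathway list the genes past both thresholds (at most 3 per direction) or, with none, the gene of at least 1 CPM with the widest difference were named, and for the 3 members with the widest range the 3 nearest profiles. Ccnb2, Nusap1 and Kif20a, Trp53, Mybl2, Dyrk1a, Pcna, the E cyclins, the genes listed at 0 and the overlapping genes were named after their values were seen. So were the named osteoblast, chondrocyte and adipocyte markers. Members and lists were chosen with earlier results of these data known.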

Additional observations from a re-analysis of the deposited data

Results flagged for a closer look

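Cdkn1c in EPS replicate 1 stood apart from the rest of its group. It was at 34.7 CPM there, against 17.4 to 19.1 CPM in EPS replicates 2 to 4, and the gap to the nearest of these was 0.902 of the range of the group, above Dixon's 95% critical value for 4 libraries. The 10 genes were each examined in the EPS group, and 1 was found. Chance gives about 1 in 20 for each gene examined, so 1 among 10 genes is not unusual. Without this library the log2 fold change of Cdkn1c was -1.23 in place of -1.002.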

How the results depend on the processing

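Over 16 alternatives Ccnd3 ranged from -0.83 to -0.54 and Cdkn1a from -0.77 to -0.29 on the log2 scale, and neither changed direction. Not all 16 can move a fold change: a mean of at least 1 CPM and P under 0.001 leave it as it was. Blocking by replicate number gave the same value as leaving out EPS replicate 2. Cdkn1c passed both thresholds in edgeR (-1.21) and DESeq2 (-1.22), and leaving out each library in turn gave -1.38 to -0.62. For Ccnd1 this range was -1.06 to -0.43, and it passed without EPS replicate 4. Directions turned for Cdkn1b without EPS replicate 1 (0.0074), for Rb1 without EPS replicate 4 (0.036) or control replicate 3 (0.067), and for Ccnd2 without EPS replicate 2 (0.15) or control replicate 1 (0.14); the cause was not tested. The ranges over omissions were -0.52 to 0.0074 for Cdkn1b, -0.32 to 0.067 for Rb1 and -0.71 to 0.15 for Ccnd2. The members past both thresholds numbered 0 in limma, 1 in edgeR, 1 in DESeq2 and 0 to 1 over the omissions, against 1.41%, 3.29%, 3.06% and 1.09% to 1.72% of all genes. Members without overlap numbered 2 to 3 over the omissions, while the share over all genes was 13% to 21.5%. Rbl2 and Ccnd3, separate with all libraries, cannot come to overlap when a library is left out, so their place among them is no test. In 6 of 7 omissions Cdkn1a, Cdkn1c, Cdkn2c or Ccnd1 joined them. After scaling by the median of ratios the members without overlap were Cdkn1a and Ccnd3, and Rbl2 was not among them.

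Over all genes, 269 past both thresholds became 601 with a pseudocount of 0.1, 629 in edgeR, 585 in DESeq2 and 106 at P under 0.001. The 27 with an adjusted p under 0.05 became 106 with a pseudocount of 0.1, 121 at a mean of at least 1 CPM, 17 after quantile normalization, 290 in edgeR, 497 in DESeq2 and 0 to 27 over the omissions. Higher calls were 68.8% of all calls, against 52.8% after scaling by the median of ratios, 51.6% after quantile normalization, 52.3% in edgeR and 54.2% in DESeq2. The median of genes of at least 1 CPM moved from 0.10 to -0.0048 and 0.0052 under these scalings.

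Of the other INK4 and CDK-inhibiting genes 1 rose with a pseudocount of 0.1, at a mean of at least 1 CPM, in edgeR and in DESeq2, and 0 to 1 over the omissions. Of the p53 target genes 1 fell in edgeR and 1 in DESeq2, and 0 to 1 rose over the omissions. G2/M genes that rose numbered 10 with a pseudocount of 0.1, 10 at a mean of at least 1 CPM, 1 after scaling by the median of ratios, 0 after quantile normalization, 12 in edgeR, 10 in DESeq2, 0 at P under 0.001 and 0 to 10 over the omissions.

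With the replicate number as a block, which drops EPS replicate 2, Ccnd3 was at -0.73 (P 0.0593), Ccnd2 turned to 0.15, and 161 genes passed both thresholds with 0 at an adjusted p under 0.05. Deviations of libraries with the same number correlated at 0.25, -0.45 and 0.068, so no common likeness by number was seen. Deviations from the means of so few libraries cannot show whether the numbers pair the libraries, and the labels do not say.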
